A study of Mus musculus with 42 samples.

Results

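The comparison described here set 5 refed EOD libraries against 5 refed IF16 libraries, 10 of the 42 samples of the series, all RNA-seq libraries from mouse cerebellum. Refed EOD mice had food withheld for 24 h on alternate days for 3 months and were then fed ad libitum for 2 months. Refed IF16 mice had food withheld for 16 h each day for the same 3 months, followed by the same 2 months of free feeding. All were C57BL/6 males, 3 months old when the regimens began and 8 months old at collection, and the labels name no genetic change in any group. Libraries were assigned by the labels EOD, IF16 and AL with the suffix R for refeeding. The 5 AL libraries with that suffix, from mice of the same age fed ad libitum throughout, entered the same fit, and their levels are given beside the others. EOD and IF16 libraries, 5 each, came from mice collected at 6 months of age, directly after the regimens. The design text describes groups of mice but does not say that each library is from a different animal, so p-values measure the spread between libraries. Markers of cerebellar neurons were abundant, as the tissue label states: granule cell markers (7 genes) summed to 6003 to 6631 CPM (counts scaled to a common library size) over the 10 libraries and Purkinje cell markers (7 genes) to 7088 to 8366 CPM, against 5.77 to 7.55 CPM for 4 forebrain markers.

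Cytosolic ribosomal proteins form the small and large subunits of the ribosome, which translates all nuclear mRNAs, and cells make them in nearly equal amounts. The respiratory chain (complexes I to IV) passes electrons from NADH and succinate to oxygen, and complex V uses the proton gradient that results to make ATP. Most of its subunits are encoded in the nucleus and a few in mitochondrial DNA, so that the chain also depends on the separate ribosomes of mitochondria. Neurons of the cerebellum depend on this ATP to restore ion gradients after firing. Many of the nuclear genes of both machines have short mRNAs, and the length of each gene (GeneLength in the deposited tables) is therefore given beside their values.

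The results turn on a few short genes, and the 100 bases upstream of the RefSeq start of 5 of them are shown because these genes had the clearest differences of their kind. They are Rpl38 (chr11:114668480-114668579, plus strand) and Rpl41 (chr10:128549169-128549268, minus strand), both of the large ribosomal subunit, Atp5k (chr5:108434400-108434499, minus strand) of complex V, Cox6b1 (chr7:30626115-30626214, minus strand) of complex IV, and Gng13 (chr17:25717072-25717171, plus strand), a G protein subunit. Positions are those of GRCm38.p6, and the sequences run 5′ to 3′ towards the RefSeq start. The deposited gene starts lie 56, 137, 49, 37 and 1 bases upstream of the RefSeq starts, in the order named. Part of each window, and all of that of Rpl41, therefore lies within the gene as deposited. Capitals mark matches, on either strand, to CCGGAA, the core of ETS family sites, or to a core of NRF1 sites (GCGCA and GCGC with any base between them).

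Rpl38: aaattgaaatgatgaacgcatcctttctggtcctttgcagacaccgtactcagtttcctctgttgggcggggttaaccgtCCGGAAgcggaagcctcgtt

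Rpl41: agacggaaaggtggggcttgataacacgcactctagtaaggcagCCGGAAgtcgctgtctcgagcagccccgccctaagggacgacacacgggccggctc

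Atp5k: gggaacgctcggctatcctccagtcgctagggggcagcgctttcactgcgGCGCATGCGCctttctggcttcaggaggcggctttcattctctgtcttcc

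Cox6b1: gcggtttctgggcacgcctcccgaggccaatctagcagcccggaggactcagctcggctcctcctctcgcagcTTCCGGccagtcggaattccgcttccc

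Gng13: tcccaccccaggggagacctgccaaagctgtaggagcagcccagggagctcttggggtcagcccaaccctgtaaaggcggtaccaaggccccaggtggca

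The CCGGAA core, or its reverse complement, was found in the printed bases of Rpl38, Rpl41 and Cox6b1, and the NRF1 core in those of Atp5k, while Gng13 had neither. Over windows of 300 bases around the start, CCGGAA was present in 29 of 59 cytosolic ribosomal protein genes that had a window (49.2%) and in 25 of 66 nuclear respiratory chain genes (37.9%), against 26.2% of 10865 genes tested. The NRF1 core was present in 4 of the 59 ribosomal genes (6.78%) and 16 of the 66 respiratory chain genes (24.2%), against 9.66% of all. AAGATGGC, a core of YY1 sites whose letters contain neither of the others, was present in 6.78%, 12.1% and 4.38%. These are matches of letters and not measured binding.

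Rpl38, Rpl41 and Gng13 differed between the refed regimens, and each was higher in refed EOD. These 3 are all of the 16444 genes tested with an adjusted p under 0.05 (edgeR's quasi-likelihood test, Benjamini-Hochberg adjustment), which is 0.0182% of genes, and genes that passed are referred to as called. Rpl38 (ENSMUSG00000057322, chromosome 11, 114668524-114672331, 457 bases), a protein of the large subunit with a known part in translating selected developmental mRNAs, stood at 76.1, 88.0, 80.1, 83.4 and 87.2 CPM in refed EOD replicates 1 to 5 and at 65.0, 68.9, 63.8, 65.0 and 67.3 CPM in refed IF16. The lowest refed EOD library lay above the highest refed IF16 library. Its log2 fold change was 0.33 (SE 0.0445, edgeR adjusted p = 0.00888). In AL it was at 75.1, 74.5, 82.6, 80.0 and 74.1 CPM, all above the refed IF16 libraries and within or below the range of refed EOD.

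Rpl41 (ENSMUSG00000093674, chromosome 10, 128548114-128549305, 695 bases) encodes a very small basic protein of the large subunit. It measured 141, 155, 156, 149.5 and 160.2 CPM in refed EOD and 121, 135, 129, 128 and 128 CPM in refed IF16, with no overlap. The log2 fold change was 0.25 (SE 0.0406, edgeR adjusted p = 0.0406), and AL stood at 149 ± 6.29 CPM (SD, n = 5). Gng13 (ENSMUSG00000025739, chromosome 17, 25717171-25719406, 719 bases), a gamma subunit of heterotrimeric G proteins known from taste and olfactory signalling, was at 11.4, 12.8, 14.0, 12.2 and 11.4 CPM in refed EOD and 9.31, 7.97, 7.38, 6.69 and 9.03 CPM in refed IF16. Here too the groups did not overlap, and the log2 fold change was 0.61 (SE 0.088, edgeR adjusted p = 0.0111). AL was at 11.4 ± 0.73 CPM (SD, n = 5). None of the other 10 gamma subunit genes was called by edgeR, and their log2 fold changes ran from -0.09 for Gng8 to 0.31 for Gngt2. The 7 Purkinje cell markers summed to 7088 to 8366 CPM in refed EOD and 7789 to 8351 CPM in refed IF16.

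When each of the 10 libraries was left out in turn, Rpl38 was called in 8 of 10 fits, Gng13 in 7 and Rpl41 in 3. No gene was called without refed IF16 replicate 3 or without refed EOD replicate 2, where 1246 and 1210 genes had an unadjusted p under 0.05. In contrast, 71 were called without refed EOD replicate 1 and 18 without refed IF16 replicate 1, and 1 gene without refed EOD replicate 3. DESeq2 called 123 genes, 55 higher and 68 lower in refed EOD, and these included Rpl38 and Rpl41. Its independent filter gave an adjusted p to 7199 of the 16444 genes, and Gng13 was not among them.

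**Figure D1:**
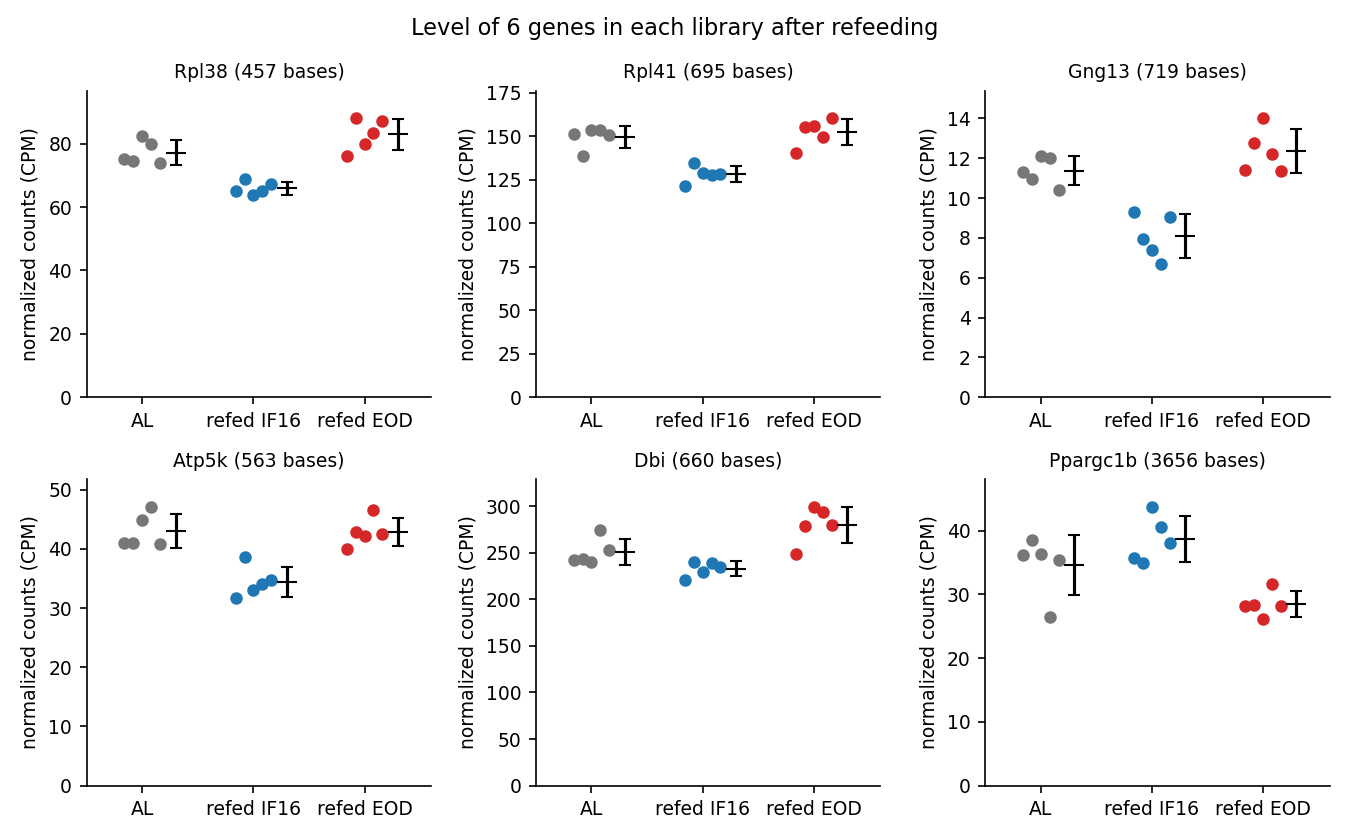
CPM (vertical axis, from 0) of Rpl38, Rpl41, Gng13, Atp5k, Dbi and Ppargc1b in each AL, refed IF16 and refed EOD library; points are libraries, and bars give the mean and SD of 5 libraries. In all 6 genes refed EOD and refed IF16 do not overlap, and Ppargc1b, the only long gene of the 6 at 3656 bases, is lower in refed EOD.

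All 82 cytosolic ribosomal protein genes had a log2 fold change above 0, as did 52.1% of all genes tested. Their median log2 fold change was 0.132, against 0.0044 over all 16444 genes, and it was 0.138 for the 33 proteins of the small subunit and 0.127 for the 49 of the large. Besides the 2 called members, 62 more had an unadjusted p under 0.05, so that 64 were higher at that threshold and 0 lower, where 9.75% of all genes passed it, 4.99% higher and 4.76% lower. DESeq2 called 22 members higher, where 55 of 7199 genes with an adjusted p were. Without refed EOD replicate 1 edgeR called 19 members higher, where 41 of 16543 genes tested were. It called 0 members without refed EOD replicate 2 or refed IF16 replicate 3. In 8 of the 82 (9.76%) every refed EOD library lay above every refed IF16 library, as in 0.791% of all genes.

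Of the small subunit, Rps26 (447 bases) was at 78.0, 83.4, 90.6, 83.3 and 89.0 CPM in refed EOD and at 67.3, 76.5, 72.3, 73.1 and 74.8 CPM in refed IF16. These values did not overlap, though the gene did not pass (log2 fold change 0.22, SE 0.0449, edgeR adjusted p = 0.115). Rps27, the shortest member at 255 bases, overlapped between the groups, with 102 ± 8.93 CPM in refed EOD and 91.5 ± 6.50 CPM in refed IF16 (SD, n = 5 each), and likewise did not pass. Of the large subunit, Rpl37 (867 bases) was at 103, 117, 122, 119 and 122 CPM in refed EOD and 95.6, 99.1, 94.6, 102 and 100.5 CPM in refed IF16, without overlap (log2 fold change 0.24, SE 0.0479, edgeR adjusted p = 0.115). Rpl36 (404 bases), also of the large subunit, stood at 97.3 ± 6.31 against 86.0 ± 5.21 CPM (SD, n = 5 each), and its groups overlapped. DESeq2 called Rps26, Rpl37 and Rpl36 (DESeq2 adjusted p = 0.00216, 0.00167 and 0.0484) and did not call Rps27. The other members without overlap were Rpl22, Rps21, Rps29 and Rpl23a, which were named after their values had been seen and have log2 fold changes of 0.11, 0.30, 0.35 and 0.36.

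Lengths of these genes as deposited ran from 255 to 5130 bases, with a median of 922.5. The 3 longest were Rps15a (5130 bases), Rps20 (3706 bases) and Rps3 (3183 bases), and how the deposited length treats alternative transcripts is not given in the sources used here. Rps20 was at 67.6, 77.2, 78.5, 75.6 and 78.5 CPM in refed EOD and 68.6, 70.7, 67.5, 62.7 and 66.5 CPM in refed IF16, so that refed EOD replicate 1 lay among the refed IF16 libraries and the other 4 above them. Its log2 fold change was 0.17, that of Rps15a 0.10 and that of Rps3 0.09, none of them called by edgeR. Rps20 was called by DESeq2 (adjusted p = 0.0382) and by edgeR without refed EOD replicate 1 (adjusted p = 0.0268). On the deposited FPKM scale, which divides by length, the levels of the family in refed EOD ran from 1.07 for Rpl24 to 448 for Rplp1. Ribosomal protein genes have many near-identical processed copies in the genome, and reads that match a copy may be lost or shared, so single members, Rpl24 and Rpl23a above all, are uncertain.

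Of 84 nuclear genes of respiratory chain subunits, 83 were tested (Cox6a2 was removed by the filter on low counts), and 79 had a log2 fold change above 0. Their median was 0.114. None was called by edgeR with all libraries. DESeq2 called 16, all higher in refed EOD, where 55 of 7199 genes with an adjusted p were. Without refed EOD replicate 1 edgeR called 12 higher, where 41 of 16543 genes tested were. In the fit of all libraries 47 had an unadjusted p under 0.05, all higher in refed EOD, where 4.99% of all genes were. Groups did not overlap in 3 of the 83 (3.61%), Ndufv3, Usmg5 and Atp5k, each higher in refed EOD, as in 0.791% of all genes.

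By complex, the median log2 fold change was 0.122 for the 36 nuclear subunits of complex I (NADH dehydrogenase), 0.057 for the 4 of complex II (succinate dehydrogenase), 0.081 for the 10 of complex III and cytochrome c, 0.151 for the 16 tested of complex IV (cytochrome c oxidase) and 0.125 for the 17 of complex V (ATP synthase). The numbers with an unadjusted p under 0.05 were 21, 0, 3, 11 and 12 in the same order, all higher in refed EOD. Atp5k (563 bases), the small e subunit in the membrane part of ATP synthase, was at 40.0, 42.8, 42.1, 46.6 and 42.6 CPM in refed EOD and 31.7, 38.5, 33.0, 34.0 and 34.7 CPM in refed IF16. No library overlapped, yet the gene stayed short of the threshold (log2 fold change 0.32, SE 0.0572, edgeR adjusted p = 0.076). AL was at 42.9 ± 2.85 CPM (SD, n = 5). Cox6b1 (505 bases), a small subunit on the outer face of complex IV, was at 119, 136, 133, 132 and 142 CPM in refed EOD and 107, 122, 115, 117 and 113 CPM in refed IF16. Only refed EOD replicate 1 and refed IF16 replicate 2 crossed (log2 fold change 0.21, SE 0.0425, edgeR adjusted p = 0.115). Uqcr11 (605 bases), a small subunit of complex III, was at 96.6, 112, 109.7, 111 and 113 CPM in refed EOD and 82.4, 98.4, 89.2, 100.4 and 92.6 CPM in refed IF16, again with refed EOD replicate 1 inside the range of refed IF16. Usmg5 (341 bases), the shortest member and a small ATP synthase protein, was at 111 ± 4.87 against 97.6 ± 6.74 CPM (SD, n = 5 each), with no overlap. DESeq2 called Atp5k, Cox6b1, Uqcr11 and Usmg5 (DESeq2 adjusted p = 0.000288, 0.00216, 0.0123 and 0.0324).

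Of the 83 genes, 4 had a log2 fold change below 0. Atp5b (1916 bases), the catalytic beta subunit of ATP synthase, was at 1486 ± 43.0 CPM in refed EOD and 1520.0 ± 55.9 CPM in refed IF16 (SD, n = 5 each; log2 fold change -0.03, SE 0.0329, edgeR adjusted p = 0.808). Ndufv1 (1661 bases), the NADH-binding subunit of complex I, had a log2 fold change of -0.03 and Atp5a1 (2674 bases), the alpha subunit of ATP synthase, one of -0.01. The fourth was Sdha (2900 bases), the flavoprotein of complex II. Atp5g1 (4715 bases), Ndufb7 (4435 bases) and Ndufb2 (4371 bases), the 3 with the longest deposited length, had log2 fold changes of 0.08, 0.13 and 0.10 with overlapping libraries. The muscle-type complex IV subunits Cox7a1 (364 bases) and Cox8b (362 bases) were the shortest after Usmg5 and had log2 fold changes of 0.11 (SE 0.102) and 0.02 (SE 0.33). Cox8b was at 0.513 ± 0.263 CPM in refed EOD and 0.507 ± 0.0767 CPM in refed IF16 (SD, n = 5 each). Per length, subunit levels in refed EOD ran from 1.42 FPKM for Cox8b to 928 FPKM for Cox6a1.

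The slope of expression on gene length differed in the same direction as these short genes. For each library it is the least-squares slope of log2 CPM, as deviation from the mean of each gene over the 15 libraries of the refeeding stage, on log2 gene length, so that a negative slope means shorter genes were relatively higher. The slopes were 0.0076, -0.0193, -0.0261, 0.0093 and -0.0211 per doubling of length in refed EOD replicates 1 to 5 and 0.0128, 0.0046, 0.0396, 0.0156 and 0.0416 in refed IF16. Refed EOD replicates 1 and 4 lay within the range of refed IF16, and refed IF16 replicates 3 and 5 lay above all other libraries. Means were -0.0099 ± 0.017 and 0.0229 ± 0.0167 (SD, n = 5 each; difference -0.0328, two-sided exact permutation p = 0.0238, where 0.00794 is the smallest that 252 splits allow). Without the 2 ribosomal lists and the respiratory chain list the difference was -0.0315 (exact permutation p = 0.0397, two-sided). The AL slope was -0.0129 ± 0.0094 (SD, n = 5). Without refed IF16 replicate 3 or replicate 5 the exact permutation p for refed EOD against refed IF16 was 0.0556, and without both the difference was -0.0209 (exact permutation p = 0.0714).

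**Figure D2:**
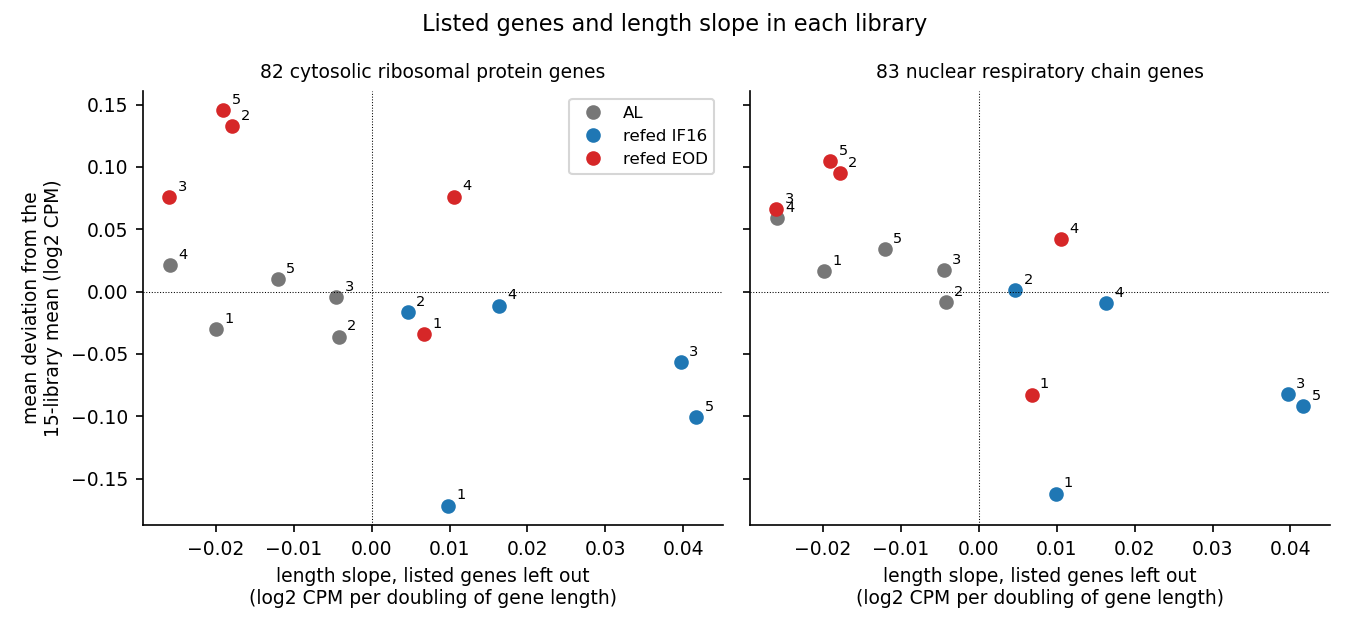
Mean log2 deviation of the cytosolic ribosomal protein and nuclear respiratory chain genes in each refed library (vertical axes) against the length slope of that library, computed without the listed genes, in log2 CPM per doubling of length (horizontal axis); colours mark the 3 groups and numbers the replicates. Refed EOD replicate 4 has a positive slope with a ribosomal mean of 0.076, and refed IF16 replicate 1 has the lowest ribosomal mean, -0.172.

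Of the 10 libraries, those with the lowest slopes had a higher ribosomal level than those with the highest slopes. Refed EOD replicates 2, 3 and 5, with the lowest slopes of the 10, had mean ribosomal protein deviations of 0.133, 0.076 and 0.145 on the log2 scale, and refed IF16 replicates 3 and 5, with the highest slopes, had -0.056 and -0.101. The other 5 libraries lay between them in slope and did not follow this order. Refed EOD replicate 4 had a positive slope (0.0093) and a ribosomal deviation of 0.076. Refed IF16 replicate 1 had the lowest deviations of ribosomal protein (-0.172) and respiratory chain genes (-0.162) at a slope of 0.0128, and refed EOD replicate 1 had -0.034 and -0.083. The 5 AL libraries, with slopes of -0.0257 to -0.0036, had ribosomal deviations of -0.036 to 0.021, all below those of refed EOD replicates 2, 3 and 5. The share of counts on ribosomal protein genes was 1.16 to 1.31% in refed EOD and 1.07 to 1.18% in refed IF16.

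Across genes, the fold change varied with length outside the 2 families. The 1645 shortest genes (at most 1074 bases) had a median log2 fold change of 0.0873, and 71.0% were above 0, while an equal number of the longest (at least 6291 bases) had -0.0462, with 24.8% above 0. Of the shortest decile, the 1521 genes that belong to no ribosomal or respiratory chain list had a median of 0.0796, and 12.7% had an unadjusted p under 0.05 and were higher in refed EOD. The change in log2 fold change per doubling of length was -0.0337 over all genes, -0.0325 outside the lists, -0.0373 within the 82 cytosolic ribosomal protein genes and -0.0283 within the 83 respiratory chain genes. These slopes across genes are descriptions, since genes of the same libraries are not independent.

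Within each family the shorter members had the larger differences. The 41 ribosomal protein genes shorter than 922.5 bases had a median of 0.158 and the 41 longer ones 0.117. For the respiratory chain the medians were 0.141 for the 42 genes of at most 955 bases and 0.0884 for the 41 longer ones. At the same length, the ribosomal protein genes lay above the trend of all genes: 81 of 82 had a fold change above a smooth curve of fold change on length, by a median of 0.063, as did 64 of 83 respiratory chain genes, by 0.053. Of all 16444 genes tested, 8241 lay above that curve.

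**Figure D3:**
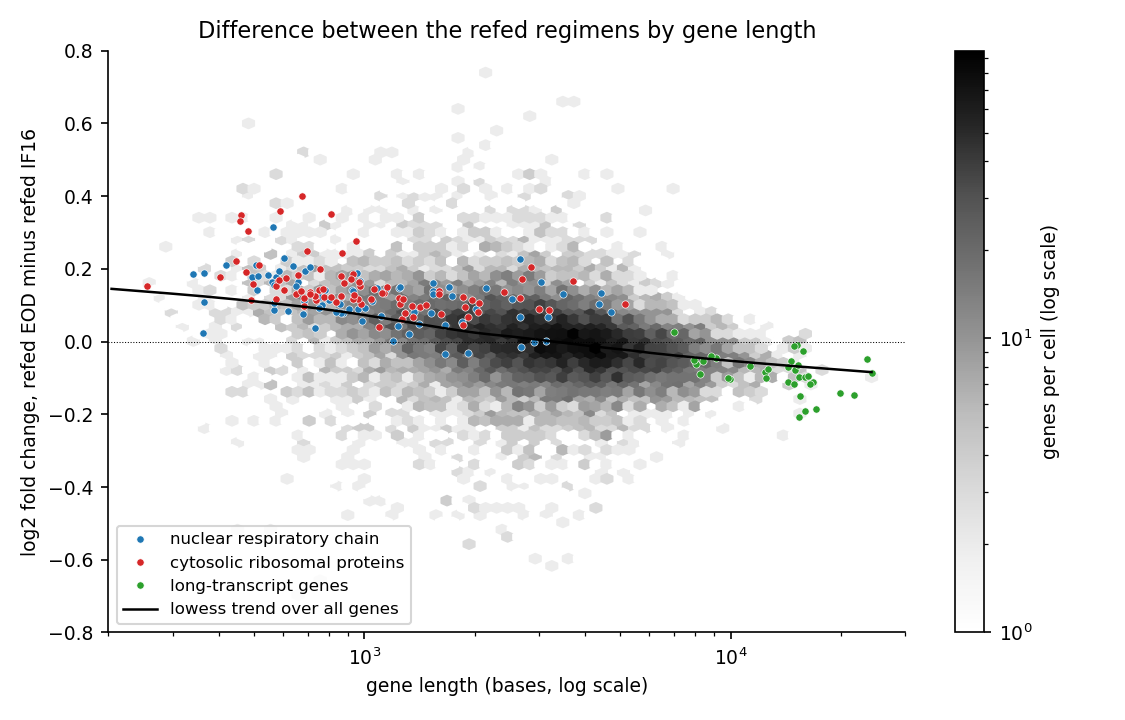
Log2 fold change of refed EOD over refed IF16 (vertical axis) against gene length in bases (horizontal log axis); shading counts the 16360 genes drawn of 16444, points are cytosolic ribosomal protein, nuclear respiratory chain and long-transcript genes, and the line is the smooth trend over all genes. The trend falls with length, and 81 of 82 ribosomal protein genes lie above it.

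Both ways of taking length into account lowered the medians and ended the 3 calls. With the slope of each library as a covariate, 0 of 16444 genes were called by edgeR and 772 had an unadjusted p under 0.05 (2.45% higher and 2.24% lower). The ribosomal median was then 0.077 with 77 of 82 above 0 and 14 at an unadjusted p under 0.05, and the respiratory chain median was 0.049 with 65 of 83 above 0 and 5 at that threshold. With the length trend of each library removed instead, 0 genes were called and 1262 had an unadjusted p under 0.05 (3.56% higher and 4.11% lower). Medians were then 0.068 for ribosomal proteins (81 above 0, 32 higher at an unadjusted p under 0.05) and 0.061 for the respiratory chain (68 above 0, 21 higher and 1 lower). The log2 fold changes of Rpl38, Gng13 and Rpl41 were 0.33, 0.61 and 0.25 in the main fit. They were 0.28, 0.55 and 0.18 with the covariate and 0.23, 0.53 and 0.16 with the trend removed. The slope itself differed between the groups (means -0.0099 and 0.0229), so the covariate fit estimates the regimen difference less precisely. A call lost there can reflect lower precision as well as a smaller difference. How much of the difference belongs to the regimen and how much goes with the length slope was not tested.

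**Figure D4:**
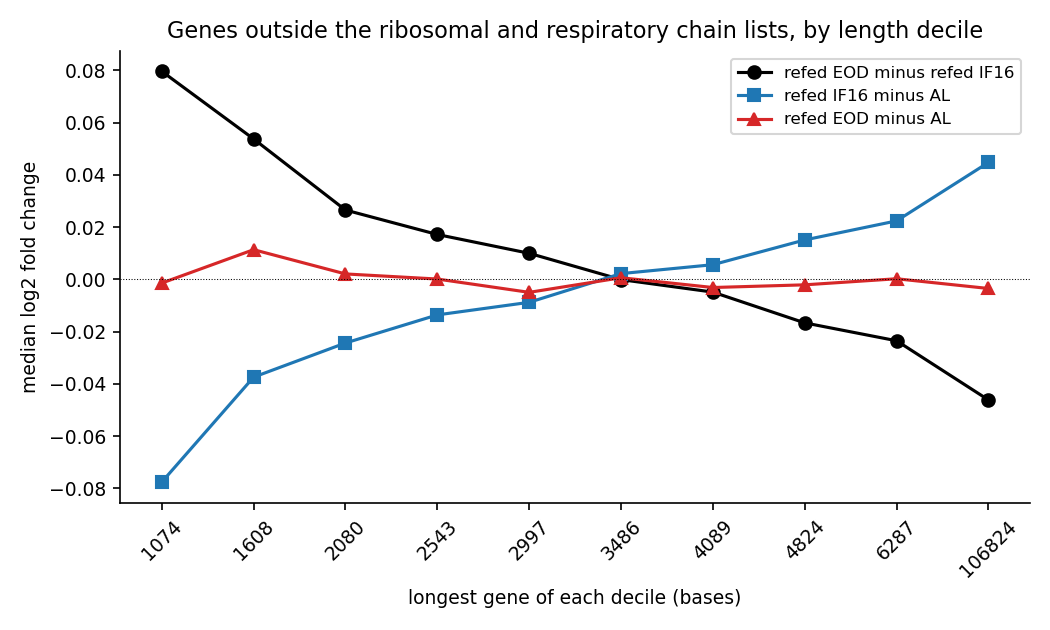
Median log2 fold change (vertical axis) of genes outside the ribosomal and respiratory chain lists, in deciles ordered by length (horizontal axis, labelled with the longest gene of each in bases), for refed EOD over refed IF16 and for each over AL. Refed EOD over refed IF16 falls from 0.0796 in the shortest decile to below 0 in the longest, and refed EOD over AL stays near 0 throughout.

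Against AL, the dependence on length was on the side of refed IF16. These 2 comparisons share the AL libraries with each other and a group each with the main comparison, so their values are set side by side only. The median of refed IF16 minus AL was -0.0784 in the shortest decile of genes and 0.0447 in the longest, and that of refed EOD minus AL was 0.0076 and -0.0035. The slopes of refed IF16 and AL did not overlap (exact permutation p = 0.00794, two-sided, the smallest possible), and those of refed EOD and AL did (exact permutation p = 0.738). Ribosomal protein genes had a median of 0.090 in refed EOD minus AL (80 of 82 above 0, 0 called) and -0.051 in refed IF16 minus AL (68 below 0). Of all 16444 genes, 8279 were above 0 in the first and 8416 below 0 in the second. Of the ribosomal protein genes, Rpl38 and Rpl41 were called in refed IF16 against AL, with log2 fold changes of -0.23 and -0.22 (edgeR adjusted p = 0.0435 and 0.0312). The respiratory chain median was 0.026 in refed EOD minus AL and -0.084 in refed IF16 minus AL, where Atp5k was the only nuclear subunit called (-0.32, edgeR adjusted p = 0.0312). Of the 13 mRNAs of mitochondrial DNA, 11 were below 0 in refed IF16 minus AL (median -0.127), and mt-Nd3, mt-Co3 and mt-Atp6 were called, at -0.74, -0.44 and -0.46 (edgeR adjusted p = 0.0312 each). These 3 had low levels for mitochondrial mRNAs, at 5.41, 58.3 and 49.5 CPM in refed IF16. Gng13 was called there too, at -0.49 (edgeR adjusted p = 0.0312). Over all genes, 7 (0.0426%) were called in refed EOD against AL, and 4.51% were higher and 3.99% lower at an unadjusted p under 0.05. In refed IF16 against AL 28 (0.17%) were called, and 4.76% were higher and 4.83% lower at that threshold.

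Other short-gene families showed smaller medians in refed EOD against refed IF16. The 76 tested mitochondrial ribosomal proteins, which translate the mRNAs of mitochondrial DNA, had a median of 0.073, with 16 (21.1%) at an unadjusted p under 0.05, all higher, where 4.99% of all genes were higher and 4.76% lower, and 0 called by edgeR. Mrpl52 (412 bases) had the smallest p of those, at 16.1 ± 1.04 CPM in refed EOD and 14.2 ± 0.592 CPM in refed IF16 (SD, n = 5 each). Mrpl38 was the lowest in p of the members below 0, at -0.04. The 15 Sm and LSm proteins, which coat spliceosomal and other small RNAs, had a median of 0.088 and 4 (26.7%) higher at that threshold, the smallest p being that of Lsm7 (468 bases, 44.9 ± 2.81 against 40.3 ± 4.31 CPM, SD, n = 5 each). For 31 proteasome subunits the median was 0.060 with 4 (12.9%) higher, among them Psmd13, whose groups did not overlap (60.2 ± 1.92 against 55.8 ± 1.04 CPM, SD, n = 5 each).

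Factors that work with these machines but have longer genes were nearer to 0. The 42 translation factors had a median length of 2611 bases and a median log2 fold change of 0.022, with 5 (11.9%) higher and 4 (9.52%) lower at an unadjusted p under 0.05, against 4.99% and 4.76% of all genes. Eif3f, a subunit of initiation factor 3, was higher without overlap (105 ± 4.82 against 94.1 ± 3.91 CPM, SD, n = 5 each), and Eif4g1, the scaffold of the cap-binding complex, was lower with overlap (315 ± 7.81 against 333 ± 14.3 CPM, SD, n = 5 each). The 42 respiratory chain assembly factors, with a median length of 1948.5 bases, had a median of 0.038 and 6 (14.3%) higher. Surf1, which helps assemble complex IV, was at 59.95 ± 2.18 against 54.6 ± 2.70 CPM, and Cox10, which makes its heme, at 22.2 ± 1.23 against 23.6 ± 1.504 CPM (SD, n = 5 each). At the other end of length, 34 of 35 listed genes with long transcripts had a log2 fold change below 0, with a median of -0.086. Of the 35, 7 (20%) were lower at an unadjusted p under 0.05, against 4.76% of all genes. The 1645 genes of the longest decile were less uniform, with a median of -0.0462, 24.8% above 0 and 12.6% lower at that threshold. Of the 35 listed genes Syne1 alone was above 0, at 0.03. Among them Ryr1 (15362 bases), a calcium release channel found in Purkinje cells, had 50.7 ± 3.01 CPM in refed EOD and 58.6 ± 5.84 CPM in refed IF16 (SD, n = 5 each; log2 fold change -0.21). With the slope as a covariate the median of these 35 was 0.042, so its sign turned, and with the trend removed it was -0.019.

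The 13 mRNAs of mitochondrial DNA had a median of 0.088, and none was called by edgeR. At an unadjusted p under 0.05, 3 (23.1%) passed, all higher, against 4.99% of all genes higher and 4.76% lower. The highest-level one of these, mt-Nd1 (957 bases, complex I), was at 4355, 5052, 4546, 4834 and 4379.5 CPM in refed EOD and 4255, 4497, 4220.3, 4235 and 4168 CPM in refed IF16. Refed EOD was higher on average, but refed EOD replicates 1 and 5 lay below refed IF16 replicate 2. mt-Nd5 had a log2 fold change of -0.03. Mitochondrial genes took 3.52 ± 0.242% of counts in refed EOD and 3.34 ± 0.08% in refed IF16 (SD, n = 5 each; exact permutation p = 0.19, two-sided). Part of the mitochondrial genome has near-identical nuclear copies, so the low values of mt-Nd3 and mt-Atp8, the other 2 with an unadjusted p under 0.05, are uncertain. With the length trend removed the median of the 13 mRNAs was 0.018, with 9 above 0 and 0 at that threshold. With the slope as a covariate it was 0.063, with 12 above 0 and 1 at that threshold.

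**Figure D5:**
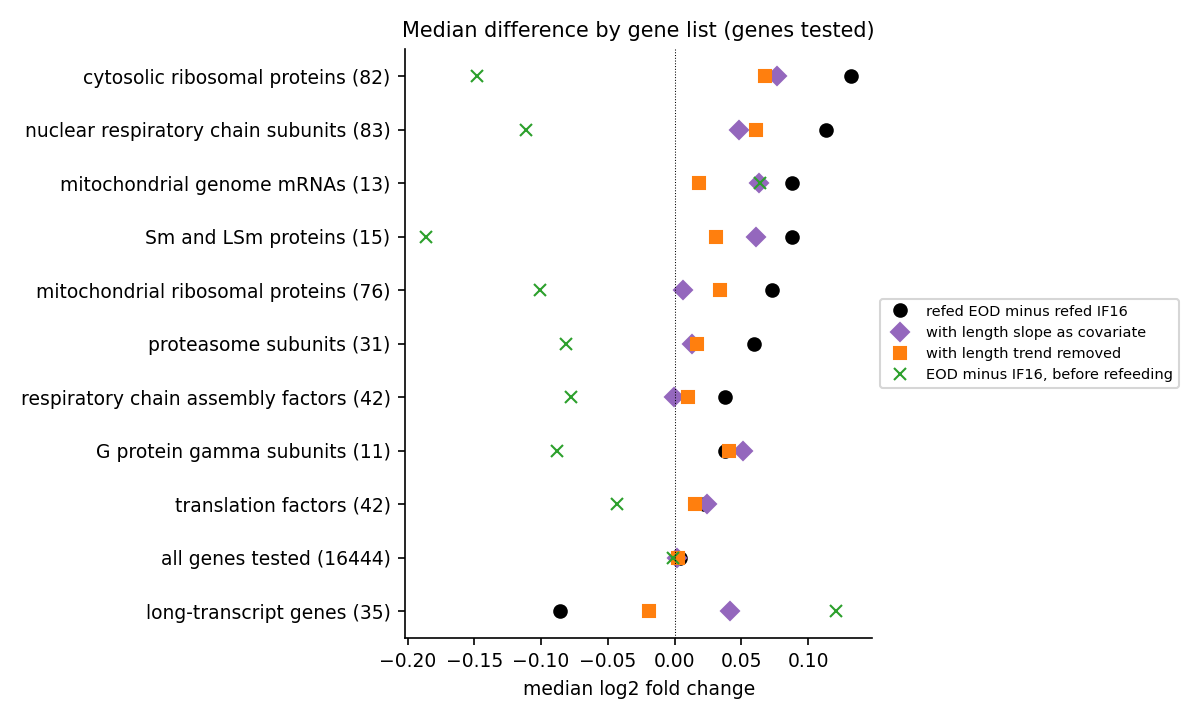
Median log2 fold change of each gene list (horizontal axis) in refed EOD over refed IF16 as fitted, with the length slope as a covariate, with the length trend removed, and in EOD over IF16 before refeeding. The ribosomal median is 0.132 after refeeding and -0.148 before it.

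Genes outside these families with the smallest p and no overlap were not called by edgeR, apart from Gng13. Of those described next, DESeq2 called Dbi and the 8 lower genes. Dbi (660 bases), an acyl-CoA binding protein and benzodiazepine receptor ligand of glia, was at 248, 278, 299, 293 and 279.8 CPM in refed EOD and 221, 240.0, 229, 239 and 235 CPM in refed IF16 (a log2 fold change of 0.27, SE 0.0482, edgeR adjusted p = 0.076). Crls1 (1924 bases), which makes cardiolipin, the lipid of the inner mitochondrial membrane, was at 24.7 ± 0.635 against 20.6 ± 1.18 CPM (SD, n = 5 each; log2 fold change 0.27, SE 0.0464, edgeR adjusted p = 0.067). It is longer than most members of either family, and its log2 fold change was 0.30 with the slope as a covariate. Ppargc1b (3656 bases), a coactivator of mitochondrial genes related to PGC-1alpha, had lower values in refed EOD, with 28.1, 28.4, 26.1, 31.7 and 28.1 CPM against 35.7, 35.0, 43.7, 40.6 and 38.1 CPM. Groups did not overlap, which the naming rule required (log2 fold change -0.44, SE 0.0849, edgeR adjusted p = 0.115). In the lower direction 0.474% of all genes had no overlap. AL stood between the refed groups for Ppargc1b at 34.6 ± 4.69 CPM (SD, n = 5), and its fold change was -0.22 with the slope as a covariate. The other 7 lower genes that the naming rule took, also without overlap, Dennd4b, Csf2ra, Atxn2l, Dvl3, Lmtk3, Pex6 and Hapln4, had log2 fold changes between -0.26 and -0.16 and lengths from 1849 to 5647 bases. Pex6 is needed for import into peroxisomes, Dvl3 carries Wnt signals and Hapln4 links perineuronal matrix.

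Before refeeding, the medians of both families in the same contrast of regimens were below 0, but hardly any member passed even an unadjusted threshold. In EOD against IF16, 0 of 16577 genes were called by edgeR and 291 genes were higher (1.76%) and 309 lower (1.86%) at an unadjusted p under 0.05. DESeq2 called 1 gene. The median log2 fold change was -0.148 for ribosomal proteins, with 3 of 82 above 0, and -0.111 for the respiratory chain, with 4 of 83 above 0. Of 16320 genes tested at both time points, 8111 were above 0. At an unadjusted p under 0.05, 1 ribosomal protein gene was lower and 0 higher, and 0 respiratory chain genes were either. Rpl38 was at -0.14 (SE 0.159), Rpl41 at -0.09 (SE 0.158) and Atp5k at -0.01 (SE 0.154) on the log2 scale, and Gng13 at 0.02 (SE 0.151). The long-transcript genes had a median of 0.121. Library slopes were 0.0405 ± 0.0625 in EOD and -0.0011 ± 0.0721 in IF16 (SD, n = 5 each; exact permutation p = 0.349, two-sided).

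The change of this contrast between the time points was tested in one fit of 30 libraries. None of 16877 genes was called by edgeR, and 4.17% were higher and 4.21% lower at an unadjusted p under 0.05. Ribosomal proteins had a median change of 0.283 and 30 of 82 at that threshold, and respiratory chain genes 0.228 and 16 of 83. The changes were 0.46 for Rpl38 (SE 0.171, edgeR adjusted p = 0.549) and 0.58 for Gng13 (SE 0.18, edgeR adjusted p = 0.542). A difference in how these families responded before and after refeeding was therefore not called for any single gene.

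Markers of choroid plexus, which lies next to the cerebellum, differed widely between libraries and stand beside all of these values. All 11 had a log2 fold change above 0 (median 1.16), with 0 of 11 at an unadjusted p under 0.05. Their sum ran from 37.2 to 2312 CPM in refed EOD and from 34.5 to 681 CPM in refed IF16, and no marker was at 0 in all 10 libraries. With the mean of these markers as a covariate the ribosomal median was 0.140 and the respiratory chain median 0.119, with Rpl38 and Gng13 called and Rpl41 not (edgeR adjusted p = 0.0659). Endothelial markers had a median log2 fold change of 0.125, with 5 of 6 above 0 and Pecam1 at an unadjusted p under 0.05. Their summed level did not overlap, at 326.5 to 338 CPM in refed EOD and 291 to 326.0 CPM in refed IF16, and their part in the differences was not tested. All 5 red blood cell markers were below 0 (median -0.583), with sums of 14.9 to 25.7 CPM in refed EOD and 13.9 to 56.2 CPM in refed IF16 and 0 of 5 at an unadjusted p under 0.05. Of the other marker lists at most 1 gene each had an unadjusted p under 0.05. For Purkinje cells it was Pcp2, higher at 224 CPM in refed EOD against 193 CPM in refed IF16. Of the 7 Purkinje cell markers 4 were below 0 (median -0.023). At the same threshold 1 of 7 granule cell markers and 1 of 2 tested brainstem markers were lower (list medians -0.018 and -0.147). In bulk tissue, fewer cells of a type and less RNA per cell cannot be told apart. Totals of the 10 libraries ran from 29255004 to 34985455 counts, the biological coefficient of variation was 8.05%, and same-group libraries differed by 4.57 to 20.6 chi-square units per degree of freedom over 20 pairs, more than sampling noise.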

How the data were processed

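RNA-seq libraries of cerebellum were deposited by the authors as a table of gene counts and one of FPKM values. Per the submitters' processing notes, STAR 2.5, HTSeq 0.6.1 and DESeq2 were used with mm10; strand handling and RNA selection are not given in the sources used here. The deposited counts were raw, and the deposited FPKM equalled each count over its gene's length and the total of its library (relative difference at most 4.96e-12 at 10 or more counts), so levels per length use them as they are.

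The 15 refeeding libraries were fitted together with edgeR 4.0.16 (R 4.3.3): filterByExpr, TMM and quasi-likelihood tests, Benjamini-Hochberg adjusted over 16444 genes, called under 0.05, with SE the absolute log2 fold change over the root of F. CPM values use TMM. Length slopes used log2 CPM with a prior count of 2, and the length trend a lowess span of 0.3. Single values were compared by two-sided exact permutation tests over libraries. The main edgeR fit and the length slope were tested on simulated counts. Of the genes changed 1.25-fold there, 40 of 67 were called, and of those changed 2-fold 65 of 66, with 10 false calls in all. Changes smaller than 1.25-fold, such as the medians of both main families, were not simulated, and these counts carried no length slope.

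The members and lists were chosen with earlier results of these data known. Named were called genes, the 8 smallest p per direction among annotated genes averaging 1 CPM or more whose groups did not overlap, in both main families the 3 shortest, 3 longest and 3 smallest p per direction, and in other lists the smallest p per direction. Promoter sequences came from RefSeq (GRCm38.p6). Alternatives were other normalizations, DESeq2 1.42.0, filters, samples, covariates, a replicate block and leaving out each library. The 12 ChIP and input samples were not used here.

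Replicate numbers recur across groups. The labels do not say what a number stands for, so the main fit used no pairing. The correlation of deviations from group means was over 0.1 in 3 of 5 same-numbered pairs (0.23, 0.06, -0.05, 0.16 and 0.26 for replicates 1 to 5). This does not settle whether the numbers pair libraries.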

Additional observations from a re-analysis of the deposited data

Results flagged for a closer look

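Among 102 groups of 5 libraries examined for the named genes and library measures, 4 held a library set apart from the other 4 by more than Dixon's critical value of 0.71, and about 5.1 (1 in 20) would be so by chance. Uqcr11 of complex III was at 96.6 CPM in refed EOD replicate 1 against 110 to 113 CPM in the other 4 refed EOD libraries, a gap of 0.774 of the range. Rps20 of the small ribosomal subunit was at 67.6 CPM in the same library against 75.6 to 78.5 CPM (0.729). The mitochondrial mRNA mt-Nd1 was at 4497 CPM in refed IF16 replicate 2 against 4168 to 4255 CPM (0.735), and Mrpl38, a mitochondrial ribosomal protein, was at 61.4 CPM in that library against 57.2 to 58.1 CPM (0.779).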

How the results depend on the processing

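The medians of the ribosomal protein and respiratory chain genes stayed above 0 under every alternative run, at 0.107 to 0.163 and 0.1003 to 0.151 with 1 library left out. The number of genes called was 3 with RLE, upper quartile or a 1 CPM filter, 2 with the choroid covariate and 6 with no filter on low counts. It was 123 with DESeq2, which gave 7199 genes an adjusted p. It was 0 with the refed EOD and IF16 libraries alone (1332 at an unadjusted p under 0.05), the slope covariate (772), the length trend removed (1262), or refed IF16 replicates 3 and 5 left out together (1059), the last chosen after seeing the data; the cause was not tested. Leaving out 1 library gave 0 to 71. With the replicate block 40 were called (13 ribosomal protein and 5 respiratory chain genes among them). With block and slope covariate 0 were called (1398 at an unadjusted p under 0.05). Whether the numbers pair libraries is not known (2 of 5 libraries correlated best with their own number). The slope difference was -0.0369 to -0.0275 with 1 library left out, -0.0328 within the replicate block (exact permutation p = 0.0625, the smallest for 5 pairs), and -0.0209 without refed IF16 replicates 3 and 5. Before refeeding, DESeq2 and the slope covariate called 1 gene each.

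Among uncalled named genes, signs turned with the slope covariate for Atp5g1 (-0.037), Cox7a1 (-0.019), Syne1 (-0.00041), Gng8 (0.024), mt-Nd5 (0.085) and Cox8b (-0.62); with block and covariate for Atp5g1 (-0.044), Syne1 (-0.0068), Gng8 (0.026), mt-Nd5 (0.13) and Cox8b (-0.679); with the trend removed for Cox7a1 (-0.0027) and Cox8b (-0.091); with the choroid covariate for Cox8b (-0.20); and without refed IF16 replicates 3 and 5 for Syne1 (-0.0092) and Atp5a1 (0.00071). With 1 library left out, mt-Nd5 ran from -0.0847 to 0.0215 and Cox8b, with the fewest counts of these, from -0.272 to 0.217.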
